A study of Mus musculus with 29 samples.

Results

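Glycine is, with GABA, the fast inhibitory transmitter of the spinal cord, and its signalling machinery was followed here through 7 genes, chosen by name from the 54532 genes of the deposited count tables. Glra1, Glra2 and Glra3 encode alpha subunits of the glycine receptor, a chloride channel, and Glrb encodes its beta subunit. Slc6a5 encodes GlyT2, the glycine transporter of glycinergic nerve endings, and Slc6a9 encodes GlyT1, the glycine transporter found mainly on astrocytes. Gphn encodes gephyrin, the scaffold protein that holds glycine receptors at the synapse.

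The study addressed changes of gene expression, inhibitory signalling among them, after ischaemia of the mouse spinal cord caused by aortic cross clamping (ACC), a clamp on the aorta that deprives the lower cord of blood. At 1 h after ACC, the thoracic and lumbar cord (ThLu) was set against the cervical cord (Cerv), which the clamp spares, of the same 3 wild-type (WT) C57BL-6J mice. At 4 h, the thoracic and lumbar cord of mice with ACC was set against that of sham-operated mice (Sham) in 3 genotypes: WT (3 ACC, 3 Sham), a global miR-128 knockout (miR128KO; 3 ACC used, 4 Sham) and a miR-155 knock-in in motor neurons (miR155KI; 5 ACC, 4 Sham). RNA selected by poly-A was sequenced from bulk tissue, and 28 of 29 libraries were used. The remaining library, miR128KO ACC replicate 1, was set aside by the study because that cord showed no significant change against Sham; this is a choice by outcome, and results with it are given below. Both alleles were on a C57BL6 background, littermates were split at random into ACC and Sham, and the 1 h mice carried neither allele. The knock-in acts in motor neurons, while these libraries hold all cells of the cord. Age is not given in the labels, and sex is not given per mouse.

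In mature spinal cord most glycine receptors are built from the alpha 1 and beta subunits, and the beta subunit binds gephyrin. Alpha 2 is the subunit typical of embryonic cord, and alpha 3 in the adult lies largely in the superficial dorsal horn, where it takes part in pain transmission. GlyT2 supplies glycine for loading into synaptic vesicles, and GlyT1 removes glycine from the extracellular space, where it is also the co-agonist of NMDA receptors.

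The microRNAs that the genotypes alter are shown first, since a match to their seeds would be a sequence link between a genotype and a gene. The mature sequences are those of RefSeq, build GRCm38.p6, with the seed (bases 2 to 8) in capitals. miR-128-3p is encoded at both chr1:128202404-128202424 (plus strand) and chr9:112118644-112118664 (minus strand), and miR-155-5p at chr16:84714143-84714165 (plus strand).
mmu-miR-128-3p: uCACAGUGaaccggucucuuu
mmu-miR-155-5p: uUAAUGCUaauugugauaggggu

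The 3′ UTR of the longest coding transcript of each gene was searched for the exact complement of each seed. CACTGTG, the complement of the miR-128-3p seed, occurred in the UTR of none of the 7 genes, against 18.7% of the UTRs of 20964 genes. AGCATTA, the complement of the miR-155-5p seed, occurred once, in Glrb, against 8.23% of all UTRs. This match lies at chr3:80844167-80844173 (minus strand), at base 791 of the 1365 bases of the Glrb UTR. It is shown with its flanks, and the capitals mark the 7 bases that match.
Glrb match to miR-155-5p: ttggtatggagAGCATTAagcataagcct

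The files gave the following positions on GRCm38 (mm10). Glra1 (ENSMUSG00000000263) lies at chr11:55514238-55608198 (minus strand), Glra2 (ENSMUSG00000018589) at chrX:165129017-165327393 (minus) and Glra3 (ENSMUSG00000038257) at chr8:55940460-56130070 (plus). Glrb (ENSMUSG00000028020) lies at chr3:80843599-80913660 (minus). Slc6a5 (ENSMUSG00000039728) lies at chr7:49910146-49963856 (plus) and Slc6a9 (ENSMUSG00000028542) at chr4:117834506-117875198 (plus). Gphn (ENSMUSG00000047454) spans 458 kb at chr12:78226379-78684772 (plus). The 7 genes therefore lie on 7 chromosomes and share no neighbourhood.

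Library totals ran from 15596512 to 33056693 counts, and all 7 genes passed the filter on low counts in each fit. No pair of libraries within a group differed by so little as sampling noise alone. The groups are separate mice at 4 h, and separate regions of the same mice at 1 h. The targeted microRNA genes gave at most 3 counts in any library, so the genotype labels could not be read from them. Mir155hg, the host transcript of miR-155, lay between 0.376 and 1.56 CPM (counts scaled to a library total of the same size) in the miR155KI libraries and at or below 0.29 CPM elsewhere. Xist, the transcript of the inactive X chromosome, was above 415 CPM in all WT libraries, in 1 of 3 ACC and 1 of 4 Sham miR128KO libraries, and in 3 of 5 ACC and 2 of 4 Sham miR155KI libraries; it was at most 0.524 CPM in the others. All neuron, astrocyte, oligodendrocyte and microglia markers were detected in every library. Summed markers of Schwann cells and dorsal root ganglion ranged from 0.629 to 150 CPM in ACC libraries and from 0.869 to 233 CPM in Sham libraries at 4 h.

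Per unit of length, the beta subunit was the most abundant of the 7 transcripts. In TPM, a length-scaled share of all transcripts that was computed from the counts with the gene lengths that the authors deposited, Glrb averaged 260 ± 25.3 (SD, n = 28 libraries). Slc6a5 followed at 160 ± 28.4 TPM, and Slc6a9 at 99.2 ± 11.7 TPM. Glra1 averaged 70.0 ± 23.7 TPM and Gphn 58.3 ± 6.10 TPM. Glra2 and Glra3 were lowest, at 12.4 ± 2.32 and 10.4 ± 1.98 TPM. Neighbours in this order overlapped in range, apart from Gphn and Glra2, whose ranges were far apart. Glra1 (30.6 to 131 TPM) spread over the ranges of both Slc6a9 (71.5 to 122 TPM) and Gphn (44.7 to 70.1 TPM), which did not overlap each other. Glra2 (8.58 to 16.3 TPM) and Glra3 (7.22 to 14.1 TPM) overlapped over most of their ranges.

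**Figure D1:**
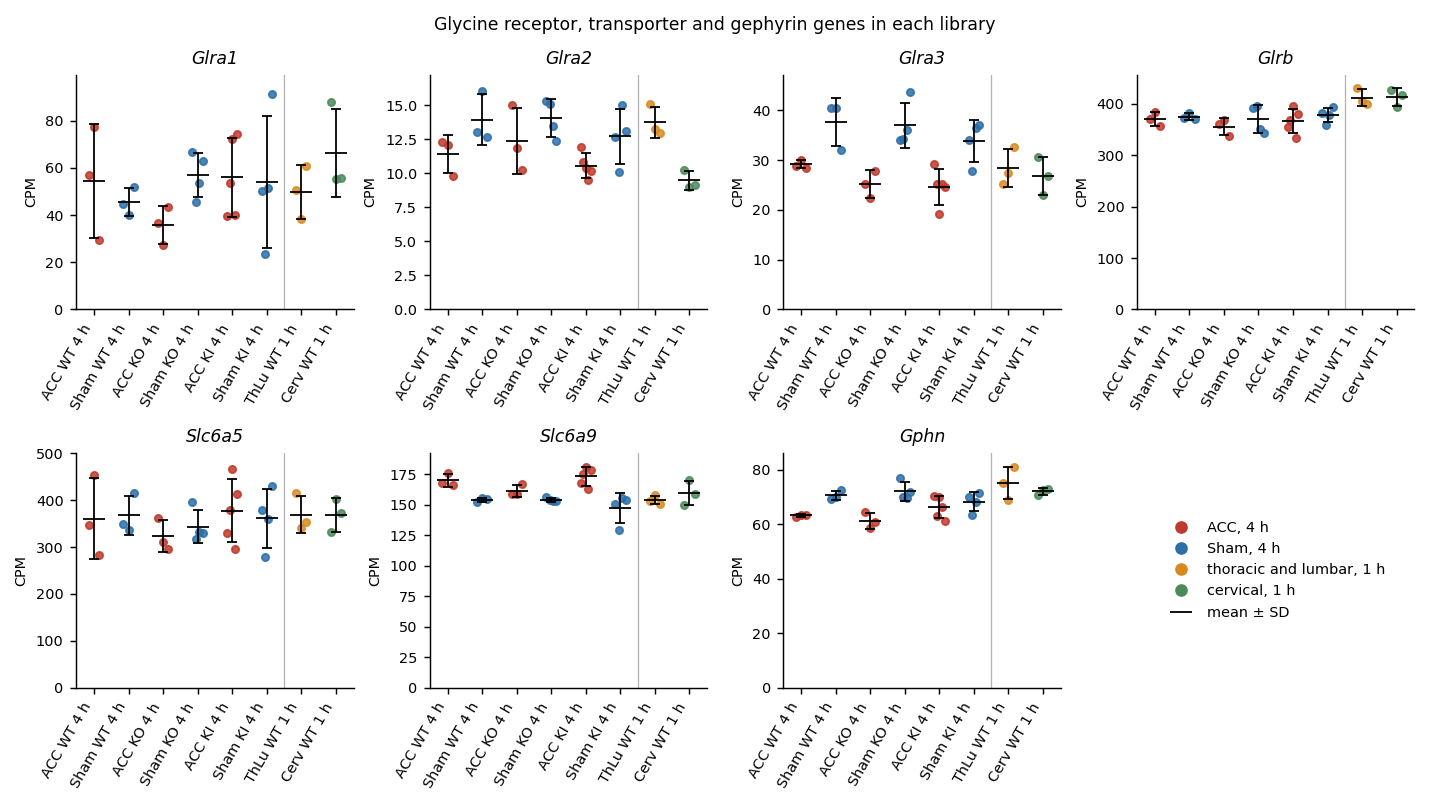
CPM (vertical axis, linear from 0) of the 7 genes in each of the 28 libraries, by group; KO is miR128KO and KI is miR155KI, and the black bars give the mean ± SD. In CPM, Slc6a9 was higher in all 11 ACC libraries than in any Sham library at 4 h, Glra3 was lower in most, and Glra1 spread from 23.5 to 91.5 CPM.

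Among the alpha subunits, Glra1 held most of the transcript at every site and time. Its share of the summed TPM of Glra1 to Glra4 was 72.9% ± 7.42 in ACC and 70.0% ± 6.01 in Sham cord at 4 h (SD, n = 11 each). At 1 h it was 71.2% ± 4.40 in ThLu and 80.9% ± 3.05 in Cerv (SD, n = 3 each). Glra2 held 13.8% ± 4.17 in ACC and 14.6% ± 3.19 in Sham cord, and Glra3 10.8% ± 3.07 in ACC and 13.3% ± 2.79 in Sham cord. The ACC and Sham shares overlapped for each subunit. Glra4, which is not one of the 7, held 2.47% ± 0.755 in ACC and 2.14% ± 0.593 in Sham cord, at 0.449 to 1.83 CPM over the 28 libraries.

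At 1 h the shares of Glra1 did not overlap: 66.5%, 72.1% and 75.2% in ThLu, against 78.4%, 80.0% and 84.3% in Cerv. The shares of Glra2 did not overlap either, with 12.3% to 17.7% in ThLu and 7.52% to 9.98% in Cerv. These shares rest on the deposited gene lengths, and without scaling by length Glra1 held 52.9% in ThLu and 63.7% in Cerv at 1 h, and 54.9% in ACC and 49.9% in Sham cord at 4 h. The ratio of Glrb to the summed alpha subunits in TPM was 2.98 ± 0.733 in ACC and 2.77 ± 0.761 in Sham cord (SD, n = 11 each), and the Glrb transcript was thus in excess of all alpha transcripts together in each group.

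**Figure D2:**
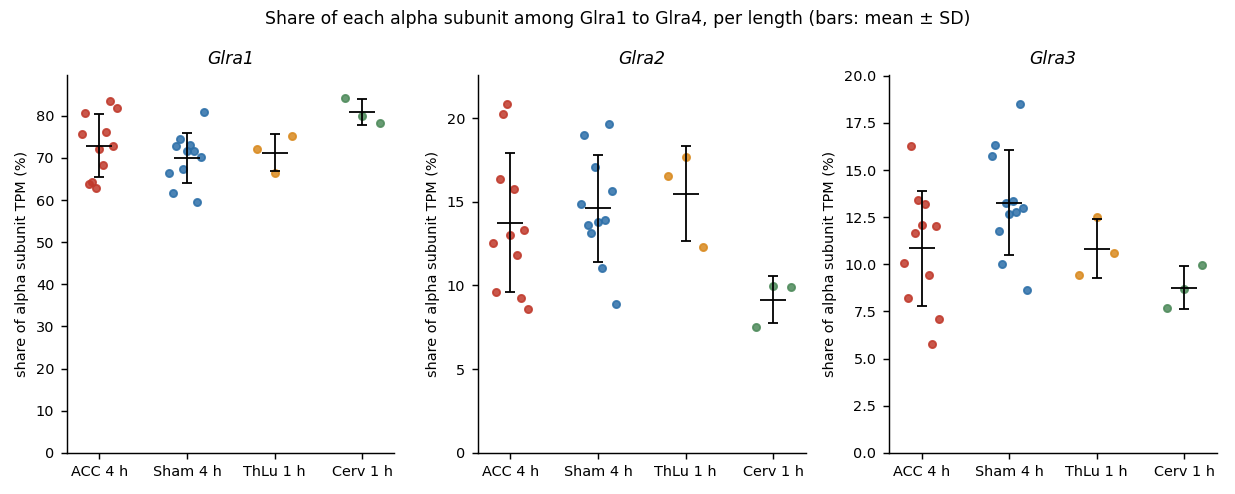
Share of Glra1, Glra2 and Glra3 in the summed TPM of Glra1 to Glra4 (%, linear axes from 0) in each library; bars give the mean ± SD. The ThLu and Cerv shares of Glra1 and Glra2 do not overlap at 1 h, while the ACC and Sham shares overlap for all 3 subunits at 4 h.

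The 1 h comparison asked what the ischaemic cord had changed against the spared cord of the same animals. None of the 7 genes passed the threshold (an adjusted p under 0.05 by edgeR's quasi-likelihood test with Benjamini-Hochberg adjustment over 17810 genes), where 0.438% of all genes tested did. Glra2 alone had an unadjusted p under 0.05, as 8.25% of all genes did. DESeq2 also called none of the 7.

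Glra2 stood at 15.1, 13.3 and 13.0 CPM in ThLu of mice 1, 2 and 3, against 10.3, 9.02 and 9.17 CPM in Cerv of the same mice. The ThLu libraries lay above all Cerv libraries, and the ratio within a mouse was 1.47, 1.47 and 1.42. The log2 difference was 0.51 (SE 0.12; unadjusted p = 0.000722, adjusted p = 0.106). Its adjusted p was 0.123 with the mouse as a block, and 0.0228 without the filter on low counts.

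Glra1 stood at 50.5, 38.2 and 60.8 CPM in ThLu, against 88.1, 55.4 and 55.6 CPM in Cerv. It was lower in ThLu in mice 1 and 2 and higher in mouse 3, and the groups overlapped (log2 difference -0.44, SE 0.28, adjusted p = 0.784). The difference was -0.19 without Cerv replicate 1 and -0.29 without ThLu replicate 2, and uncalled in both. Slc6a5 had 415, 340 and 353 CPM in ThLu, against 331, 402 and 372 CPM in Cerv. The sites overlapped in part, with a log2 difference of -0.03 (95% normal interval -0.19 to 0.13).

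The other 4 genes overlapped between the sites as well, with log2 differences of 0.06 for Glra3, -0.04 for Glrb, -0.09 for Slc6a9 and 0.03 for Gphn. The interval was narrowest for Glrb, from -0.16 to 0.09, and widest for Glra1, from -0.99 to 0.11. ThLu and Cerv differ in region as well as in ischaemia, and these cannot be told apart. Motor neuron markers, 4 of 6 of which were lower in ThLu with none higher, summed to 244 to 259 CPM in ThLu and 386 to 423 CPM in Cerv; their part in any difference was not tested.

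The 4 h comparison asked what differed between ACC and Sham cord, first over all genotypes together. Of the 7 genes, 4 passed the threshold, 1 higher and 3 lower in ACC. Over all 17759 genes tested, 16.4% were called, 9.37% higher and 7.04% lower. The median log2 difference was -0.07 over the 7 genes and -0.01 over all genes. The alpha subunits Glra3 and Glra2 and the scaffold Gphn fell, the transporter Slc6a9 rose, and Glra1, Glrb and Slc6a5 were not called. With the library that the study set aside, the same 4 genes were called, with Glra3 at -0.43 (adjusted p = 0.000165), Slc6a9 at 0.17 (0.000993), Gphn at -0.12 (0.0273) and Glra2 at -0.23 (0.0452). In bulk tissue a lower count can come from fewer cells of a type or from less RNA per cell, and these cannot be told apart.

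Glra3 moved most. In WT it had 28.9, 30.1 and 28.5 CPM in ACC cord, against 40.5, 40.4 and 32.1 CPM in Sham cord. In miR128KO it had 25.3, 22.3 and 27.9 CPM in ACC cord, against 34.1, 34.3, 36.1 and 43.8 CPM in Sham cord. In miR155KI it had 29.2, 25.2, 19.1, 25.2 and 24.7 CPM in ACC cord, against 34.1, 27.8, 36.4 and 37.1 CPM in Sham cord.

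Of the 11 Sham libraries, 10 had more Glra3 than every ACC library, and the exception was miR155KI Sham replicate 2 at 27.8 CPM. Over all genotypes Glra3 averaged 26.0 ± 3.31 CPM in ACC and 36.1 ± 4.41 CPM in Sham cord (SD, n = 11 each). It fell by 27.3%, a log2 difference of -0.46 (SE 0.07, adjusted p = 2.85e-05). The difference lay between -0.49 and -0.42 in all 30 alternative fits, and each called it.

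Slc6a9, the GlyT1 gene, was the one gene of the 7 whose ACC and Sham libraries did not overlap in CPM. How many of all genes separated in this way was not counted. In TPM its arms did overlap, with WT ACC replicate 1 at 96.3 TPM and miR155KI Sham replicate 4 at 103 TPM. In WT it had 168, 176 and 166 CPM in ACC cord, against 152, 155 and 155 CPM in Sham cord. In miR128KO it had 159, 159 and 167 CPM in ACC cord, against 157, 154, 153 and 153 CPM in Sham cord. In miR155KI it had 168, 175, 181, 163 and 179 CPM in ACC cord, against 151, 129, 156 and 154 CPM in Sham cord.

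The lowest of the 11 ACC libraries thus had 158.5 CPM and the highest of the 11 Sham libraries 156.7 CPM, with the miR128KO libraries closest together. The rise was small, 12.5%, a log2 difference of 0.17 (SE 0.04, adjusted p = 0.000899), and it was called in all 30 alternative fits. Of the 8 astrocyte markers, 3 were lower in ACC (Gja1, Gjb6 and Fgfr3) and none higher. Summed, these markers lay at 5916 to 6655 CPM in ACC and 6260 to 7005 CPM in Sham cord. The summed ranges overlapped, the other astrocyte markers were not called, and the part of astrocytes in the result was not tested.

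**Figure D3:**
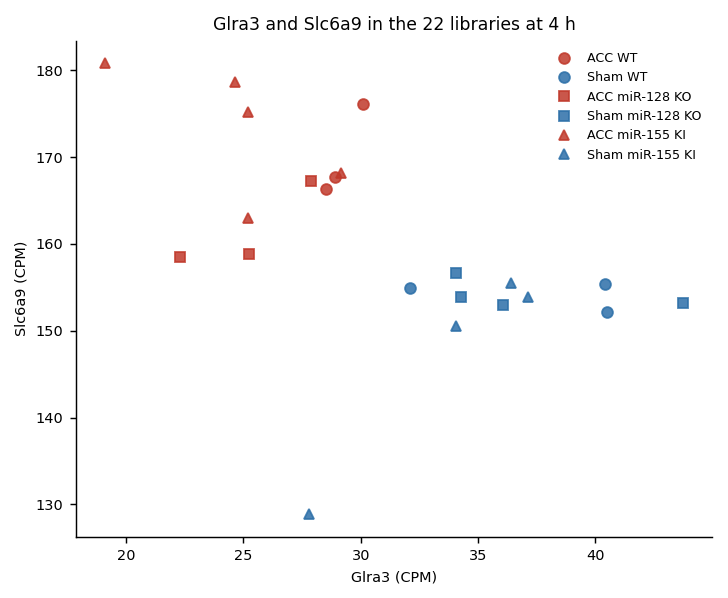
Glra3 (horizontal axis, CPM) against Slc6a9 (vertical axis, CPM) in the 22 libraries at 4 h; neither axis starts at 0. The 11 ACC libraries lie at the upper left and the 11 Sham libraries below them, with miR155KI Sham replicate 2 (27.8 CPM of Glra3, 129 CPM of Slc6a9) apart from the other Sham libraries.

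Gphn, the gephyrin gene, had 62.8 to 63.6 CPM in WT ACC and 69.4 to 72.6 CPM in WT Sham cord. It had 58.7 to 64.6 CPM in miR128KO ACC and 69.6 to 77.2 CPM in miR128KO Sham cord. In both genotypes the arms did not overlap in CPM. In miR155KI they did, with 61.3 to 70.6 CPM in ACC and 63.6 to 71.5 CPM in Sham cord. In TPM the WT ACC range, 49.4 to 58.5, lay within the WT Sham range, 44.7 to 59.0. The WT mean was then higher in ACC, at 54.4 against 53.1 TPM. The miR128KO arms stayed apart in TPM, at 50.44 to 54.15 in ACC and 56.89 to 68.96 in Sham cord. Over all genotypes Gphn fell by 8.1%, a log2 difference of -0.12 (SE 0.04, adjusted p = 0.0199). It was not called in 2 of the 30 alternative fits: the adjusted p was 0.0653 without the filter on low counts and 0.245 with genotype and mouse number as a block. That block kept only the 18 libraries with a same-numbered library in the other arm of their genotype.

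Glra2, the alpha 2 subunit, averaged 11.3 ± 1.58 CPM in ACC and 13.6 ± 1.71 CPM in Sham cord (SD, n = 11 each). The arms overlapped, at 9.52 to 15.01 CPM in ACC and 10.1 to 16.1 CPM in Sham cord. It fell by 16.1%, a log2 difference of -0.25 (SE 0.08, adjusted p = 0.0293). The call was the least firm of the 4. It was lost, with an adjusted p up to 0.0578, when any 1 of 8 libraries was left out (WT ACC 3, WT Sham 2, miR128KO ACC 5, miR128KO Sham 1 and 2, miR155KI ACC 4 and 5, miR155KI Sham 3). With genotype and mouse number as a block, the adjusted p was 0.211.

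Glra1, the main alpha subunit, had a median of 43.7 CPM in ACC (27.4 to 77.5 CPM, n = 11) and of 51.5 CPM in Sham cord (23.5 to 91.5 CPM, n = 11). The Sham range enclosed the ACC range, and the lowest and the highest library of all were both miR155KI Sham, replicates 2 and 4. The log2 difference was -0.07 with a 95% normal interval of -0.48 to 0.34 (SE 0.21, adjusted p = 0.873). An interval of that width covers differences as large as that of Glra3.

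Glrb had a median of 369.5 CPM in ACC (334 to 395 CPM, n = 11) and of 378 CPM in Sham cord (343 to 397 CPM, n = 11). The arms overlapped almost in full, and the log2 difference was -0.03 with a narrow interval of -0.10 to 0.04 (adjusted p = 0.682). Slc6a5, the GlyT2 gene, had a median of 346 CPM in ACC (282 to 467.5 CPM, n = 11) and of 349.5 CPM in Sham cord (279 to 430 CPM, n = 11). Its log2 difference was 0.02 with an interval of -0.15 to 0.18 (adjusted p = 0.923). The ratio of Slc6a5 to Slc6a9 in TPM ran from 1.21 to 1.85 in ACC and from 1.47 to 2.00 in Sham cord.

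**Figure D4:**
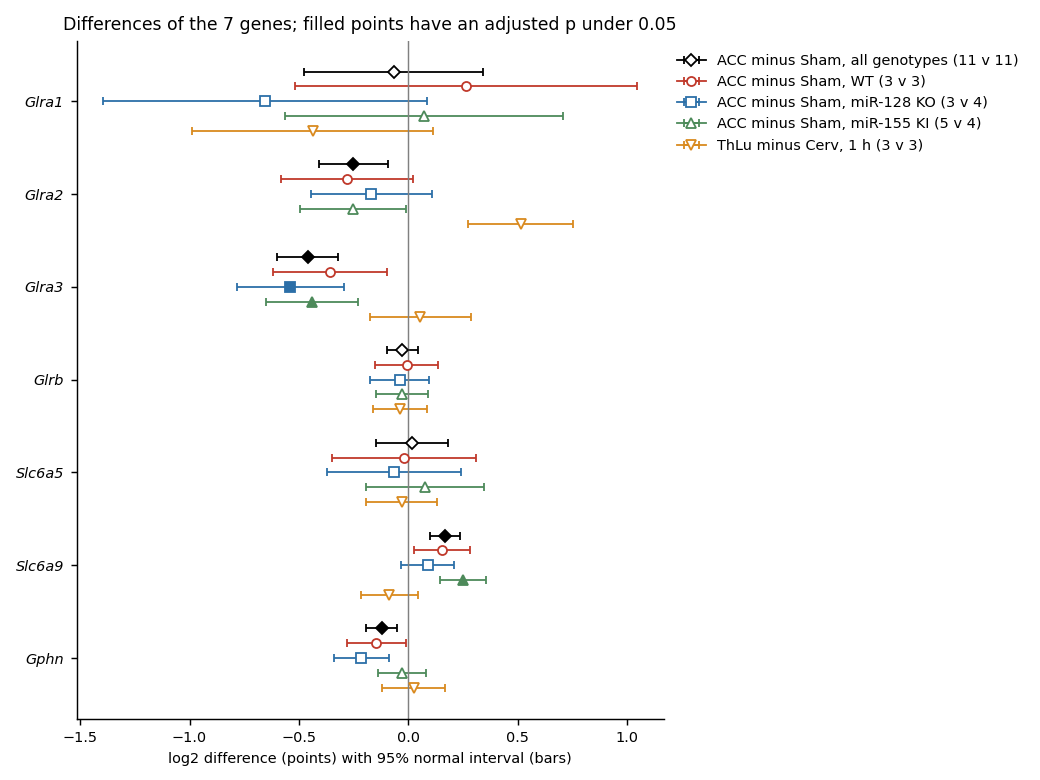
Log2 differences (horizontal axis) of the 7 genes in 5 comparisons, with their 95% normal intervals. Filled points have an adjusted p under 0.05 by edgeR. The intervals are narrower than the F test implies, and that of Glra2 in miR155KI (-0.49 to -0.01) excludes 0 at an unadjusted p of 0.0514 by that test. Glra3 lies below 0 in all 4 comparisons of ACC with Sham and Slc6a9 above 0, and the intervals of Glra1 are the widest.

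The authors' deposited table of their own DESeq2 comparison at 4 h, read here as ACC minus Sham, gave log2 differences of -0.46 for Glra3 (adjusted p = 7.52e-08), 0.17 for Slc6a9 (adjusted p = 1.89e-05), -0.12 for Gphn (adjusted p = 0.0123) and -0.25 for Glra2 (adjusted p = 0.025). It rests on the same libraries and is no separate evidence. The authors' deposited table of ACC mice with high against low chemokine expression called none of the 7 genes, with an adjusted p of 1 for each. For Glra3 its log2 difference, high minus low, was 0.24 (unadjusted p = 0.095).

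Within single genotypes fewer of the 7 genes were called. In WT (3 against 3) none passed the threshold, where 1.73% of 19581 genes did; 3 had an unadjusted p under 0.05, as 12.7% of all genes did, and DESeq2 also called none of the 7. Glra3 had a log2 difference of -0.36 in WT (SE 0.13, unadjusted p = 0.0121, adjusted p = 0.217), Slc6a9 of 0.15 (adjusted p = 0.316) and Gphn of -0.15 (adjusted p = 0.375).

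In miR128KO (3 against 4), Glra3 alone was called, at -0.54 (SE 0.12, adjusted p = 0.0145), where 2.73% of all genes were. That call was lost without ACC replicate 3 (adjusted p = 0.0568), without ACC replicate 4 (0.0763) or without Sham replicate 4 (0.0653), with the library that the study set aside (0.0844), and with the replicate block (0.0821). The block kept only replicates 3 and 4 of each miR128KO arm. Gphn had -0.22 (SE 0.06, adjusted p = 0.0697) and was called by DESeq2 (adjusted p = 0.015). Glra1 had 36.5, 27.4 and 43.7 CPM in miR128KO ACC cord, against 66.6, 45.8, 53.6 and 62.8 CPM in miR128KO Sham cord. These arms did not overlap, but they did with the library that the study set aside, at 46.3 CPM. The log2 difference was -0.65 with an SE of 0.38 (adjusted p = 0.426), and -0.38 with the ribosomal protein level, described below, as a covariate (adjusted p = 0.389).

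In miR155KI (5 against 4), Slc6a9 at 0.25 (SE 0.05, adjusted p = 0.00589) and Glra3 at -0.44 (SE 0.11, adjusted p = 0.0154) were called, where 4.62% of all genes were. The call of Glra3 was lost without Sham replicate 3 (adjusted p = 0.0584) or Sham replicate 4 (0.0525). With the replicate block neither was called, at an adjusted p of 0.0827 for Slc6a9 and 0.0822 for Glra3. Gphn had -0.03 there (SE 0.06, adjusted p = 0.85).

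The size of the ACC difference was not shown to vary with genotype. The test of that difference called none of the 7 genes, and 0% of the 19581 genes tested, by edgeR. No gene of the 7 had an unadjusted p under 0.05, as 3.16% of all genes did; DESeq2 called 1 gene in all and none of the 7. The unadjusted p was 0.101 for Gphn, 0.151 for Slc6a9, 0.225 for Glra1 and 0.609 for Glra3.

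The genotypes themselves were compared within Sham and within ACC cord, 6 comparisons in all. None of the 7 genes was called in any by edgeR or DESeq2, and none of the 42 values had an unadjusted p under 0.05 by edgeR. The share of all genes called was 0% in both comparisons of a mutant with WT in Sham cord (with 24 genes for miR128KO and 9 for miR155KI by DESeq2), 0.148% for miR155KI against miR128KO Sham, 0.00511% for miR128KO against WT ACC, 0.0204% for miR155KI against WT ACC and 0.194% for miR155KI against miR128KO ACC. An unadjusted p under 0.05 was held, in the same order, by 6.37%, 4.68%, 7.6%, 6.23%, 4.34% and 11% of all genes. The 42 log2 differences lay between -0.58 and 0.63, and between -0.24 and 0.21 without Glra1. Both extremes were Glra1, at -0.58 (SE 0.40) for miR128KO against WT ACC and at 0.63 (SE 0.36) for miR155KI against miR128KO ACC. The first was -0.27 without WT ACC replicate 2 and -0.87 without WT ACC replicate 3, and the second was 0.29 with the ribosomal protein level as a covariate.

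The lowest unadjusted p of the 42 was 0.0574, for Glra3 in miR155KI against WT ACC (log2 difference -0.24, SE 0.12, adjusted p = 1). Glrb, the one gene with a match to the miR-155-5p seed, had 360 to 394 CPM in miR155KI Sham, against 370 to 383 CPM in WT Sham cord. The knock-in range enclosed the WT range, and the log2 difference was 0.01 with an interval of -0.12 to 0.15 (adjusted p = 0.999). In ACC cord it was -0.01 for miR155KI against WT, with an interval of -0.14 to 0.12 (adjusted p = 1). The share of libraries high in Xist differed between the genotypes, so sex and genotype are partly confounded in these comparisons; Glra2 is on the X chromosome.

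The promoters of the 2 genes with the largest difference and the most separated CPM at 4 h are shown, since these genes moved in opposite directions. They are taken from RefSeq (GRCm38.p6), from 250 bases before to 50 bases after a gene's start, with capitals for the GC box (GGGCGG), the CCAAT box (CCAAT) and the CArG box of serum response factor, each searched on both strands with no overlap between the matches. The Glra3 promoter, chr8:55940168-55940467 (plus strand), holds 1 GC box, 2 CCAAT boxes and 1 CArG box, the last at 122 to 113 bases before the start. The first of 3 listed Slc6a9 promoters, chr4:117835008-117835307 (plus strand), holds 2 GC boxes and neither of the others. The remaining Slc6a9 promoters hold none of these boxes.
Glra3 promoter: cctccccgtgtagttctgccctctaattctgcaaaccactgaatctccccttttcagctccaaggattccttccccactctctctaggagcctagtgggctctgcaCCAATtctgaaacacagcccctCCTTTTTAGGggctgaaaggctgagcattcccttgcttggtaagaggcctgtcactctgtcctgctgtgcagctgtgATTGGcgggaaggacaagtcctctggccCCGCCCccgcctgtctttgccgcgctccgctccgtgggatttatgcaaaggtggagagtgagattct
Slc6a9 promoter: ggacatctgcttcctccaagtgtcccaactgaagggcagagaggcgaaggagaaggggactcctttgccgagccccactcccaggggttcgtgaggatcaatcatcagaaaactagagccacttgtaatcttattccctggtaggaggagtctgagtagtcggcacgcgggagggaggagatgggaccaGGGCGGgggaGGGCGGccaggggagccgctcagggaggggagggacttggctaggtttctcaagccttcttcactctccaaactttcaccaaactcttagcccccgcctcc

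Of the 32851 promoters in that table, 35.7% hold a GC box, 37.4% a CCAAT box and 1.63% a CArG box. Of the other members with an entry, Glrb has 2 GC boxes and Gphn and Glra2 have 1 each, while neither Slc6a5 entry has one. Other motifs were searched as well and are not reported here. A match describes the letters alone.

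The genes most like each of the 7 were taken by the correlation of log2 CPM over the 22 libraries at 4 h after the group means were removed, among 13048 genes, as a description with no test. For Glra1 they were Slc9a7 (r = 0.969), Syn3 (0.965) and Arfgef2 (0.963), and for Slc6a5 they were Atp8a2 (0.966), Hspa12a (0.963) and Pde10a (0.956). For Glra3 they were Chl1 (0.887), C1ql3 (0.852) and Papolg (0.825). Glra2 was closest to Sik3 (0.856), Glrb to Ddx25 (0.902), Slc6a9 to Snx29 (0.898) and Gphn to Anxa11 (0.837).

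Among the 7 genes themselves, 6 of 21 pairs had an adjusted p under 0.05 for Pearson's r, and 4 of these also for Spearman's rho. These were permutation tests with Benjamini-Hochberg adjustment over the 21 pairs. They ignored the groups whose means had been removed, so the p-values can be too small. How many pairs among all genes would pass was not counted. The closest pair was Glra1 and Slc6a5, with r = 0.846 and Spearman's rho = 0.797 (permutation p = 1e-05, the smallest that 100000 permutations can give, and 2e-05; adjusted p = 0.00021 and 0.00042). Without the 2 libraries farthest in Glra1, r was 0.811, and it was 0.821 within ACC and 0.906 within Sham cord. The 100 genes most like Glra1 had r of at least 0.891, and the 100 most like Slc6a5 at least 0.872. Neither gene was thus among the 100 most like the other, and the relation is not particular to this pair. Glra3, in contrast, had r = 0.13 with Glra1 (rho = 0.048, permutation p = 0.56 and 0.831, adjusted p = 0.588 and 0.831; r = -0.204 without the 2 farthest).

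The spread of Glra1 between libraries of a group was large for its level. Its biological coefficient of variation in the edgeR fit of all genotypes was 33.1%, above that of 99.6% of the 2593 genes of similar mean count, whose median was 8.22%. Slc6a5 stood at 14.4%, above 98.1% of the genes at its level. Slc6a9 and Gphn stood at 6.34% and 6.35%, and Glrb at 7.16%. The 2 genes called with the smallest changes at 4 h were thus also the ones with the least spread.

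Glra1 ran opposite to the genes of ribosomal proteins. Their median log2 CPM over 73 genes was taken as 1 value per library. Its deviation from the group mean was set against that of each of the 7 genes (7 relations, 22 libraries). The ribosomal level was chosen after seeing the data, and how many of all genes follow it as closely was not counted. Strong correlations were common, as the 100 genes most opposed to Glra1 had r of -0.836 or lower. The permutations ignored the groups whose means had been removed, so the p-values can be too small. For Glra1, r was -0.867 and rho -0.845 (permutation p = 1e-05 each, adjusted p = 7e-05 each); r was -0.798 without the 2 libraries farthest in ribosomal level, -0.825 within ACC and -0.92 within Sham cord. For Slc6a5, r was -0.738 and rho -0.675 (permutation p = 0.00015 and 0.00081, adjusted p = 0.000525 and 0.00283), and r was -0.619 without those 2 libraries.

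For Slc6a9, r was -0.432 and rho -0.321 (permutation p = 0.0429 and 0.147, adjusted p = 0.1 and 0.342; r = -0.202 without those 2 libraries). For Glra2, Glra3, Glrb and Gphn, r lay between -0.274 and -0.0336 and rho between -0.219 and -0.00395, and no permutation p was under 0.05. Within single arms their r ran wider, from -0.548 for Gphn in Sham cord to 0.31 for Glra3 in ACC cord. Glra3 had -0.411 in Sham cord. The ribosomal level itself averaged 7.18 ± 0.137 log2 CPM in ACC and 7.18 ± 0.126 log2 CPM in Sham cord (SD, n = 11 each), so it did not separate the arms.

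The genes that varied with Glra1 were long and those that varied against it were short. The 100 genes with the highest correlation to Glra1 had a median deposited length of 10.4 kb and the 100 with the lowest 1.84 kb, against 4.44 kb over 14097 genes. The last 100 held 16 of the 73 ribosomal protein genes and the first 100 none. For Glra3 the same medians were 6.03 kb and 3.38 kb. Glra1 itself has a deposited length of 2.41 kb. What part the ribosomal level, transcript length or RNA quality have in the spread of Glra1 was not tested; with the ribosomal level as a covariate its ACC difference at 4 h was -0.08 with an SE of 0.13, against 0.21 without it, and it remained uncalled (adjusted p = 0.705).

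**Figure D5:**
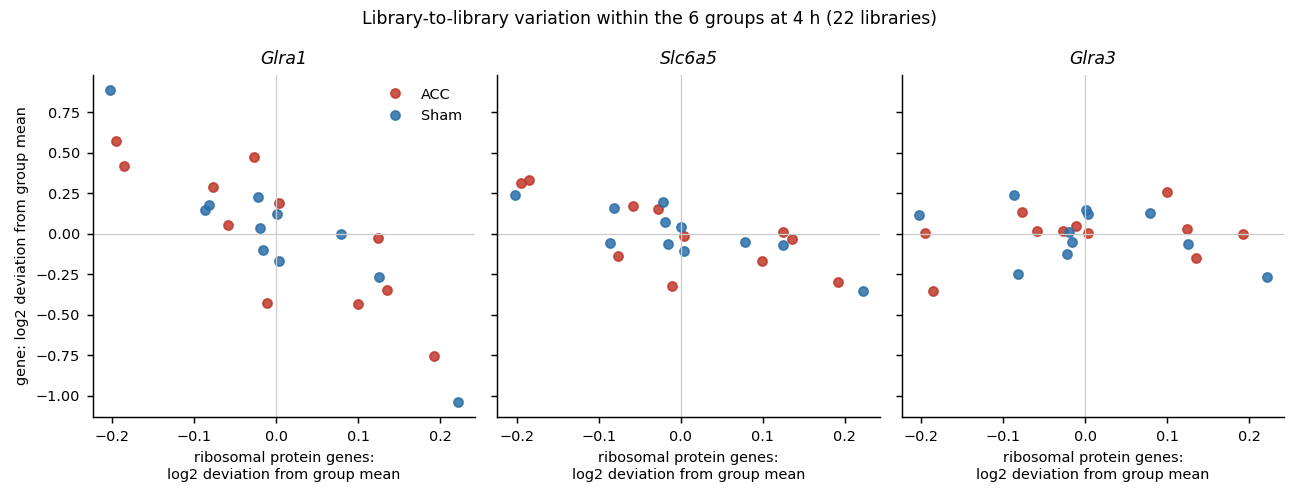
Deviation of Glra1, Slc6a5 and Glra3 from their group means (vertical axis, log2 units) against that of the ribosomal protein genes (horizontal axis, log2 units) in the 22 libraries at 4 h, ACC and Sham coloured apart. Glra1 (r = -0.867) and Slc6a5 (r = -0.738) fall as the ribosomal level rises. Glra3 had r = -0.043 over both arms, 0.31 within ACC and -0.411 within Sham cord.

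Around the 7 genes, 7 lists of related genes were counted. At 1 h, no gene of these lists was called by edgeR or, among those named here, by DESeq2, where 0.438% of all genes were called by edgeR. Among the most abundant genes of these lists, the log2 differences were all uncalled, with Slc12a5 at 0.09 (SE 0.07), Slc38a2 at 0.09 (SE 0.12), Slc38a1 at 0.12 (SE 0.07), Grin1 at 0.13 (SE 0.06), Grin3a at 0.13 (SE 0.08), Pax2 at 0.11 (SE 0.10) and Lbx1 at 0.30 (SE 0.11).

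Likewise uncalled were Dynll2 at -0.08 (SE 0.08), Pfn2 at -0.00 (SE 0.06), Mocs2 at -0.02 (SE 0.08), Suox at -0.25 (SE 0.14), Psat1 at -0.04 (SE 0.07) and Dld at -0.02 (SE 0.07).

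At 4 h over all genotypes, where 16.4% of all genes were called, the lists held calls in both directions. The most frequent were NMDA receptor subunits, for which glycine is the co-agonist: 3 of 7 fell and none rose (list median log2 difference -0.09, -0.01 over all genes). Grin2a fell by 0.38 on the log2 scale (SE 0.07, adjusted p = 0.000246), Grin2b by 0.39 (SE 0.12, adjusted p = 0.025) and Grin3a, a subunit that itself binds glycine, by 0.19 (SE 0.05, adjusted p = 0.00724). Grin1, the obligatory subunit, was at -0.09 (adjusted p = 0.232). Grin2b was not called without the filter (adjusted p = 0.0505) or with the block (0.104).

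Of 14 gephyrin partners and inhibitory postsynaptic genes, 2 fell and 1 rose (list median -0.04). Slitrk3, an adhesion protein of inhibitory synapses, fell by 0.42 on the log2 scale (SE 0.08, adjusted p = 0.000605). Dynll1, a dynein light chain that binds gephyrin, rose by 0.18 (SE 0.06, adjusted p = 0.0272), a call lost without miR155KI ACC replicate 4 (adjusted p = 0.0513) or miR155KI Sham replicate 4 (0.052). Nlgn2, another adhesion protein of inhibitory synapses, was at -0.10 (SE 0.04, adjusted p = 0.139).

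Gephyrin also completes the synthesis of the molybdenum cofactor, and of 6 genes of that pathway 1 rose (list median -0.05): Mocs3, by 0.21 on the log2 scale (SE 0.07, adjusted p = 0.0373). It lost its call in 12 of 30 alternative fits, with an adjusted p up to 0.0978. Of 10 genes of glycine and serine synthesis and cleavage, 1 rose (list median 0.05): Psph, the last enzyme of serine synthesis, by 0.30 (SE 0.06, adjusted p = 0.000591). Shmt1 and Shmt2, which interconvert serine and glycine, were at 0.09 (SE 0.11) and 0.06 (SE 0.05), and Gldc of the glycine cleavage system was at 0.17 (SE 0.10, adjusted p = 0.233).

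No gene of 7 for inhibitory transmitter synthesis, vesicle loading and the chloride gradient was called by edgeR (list median -0.05). Slc32a1, the vesicular transporter that loads glycine and GABA, was at 0.03 (SE 0.05) and Slc12a5, the chloride exporter KCC2 on which glycinergic inhibition depends, at -0.04 (SE 0.05). None of 7 other genes whose products carry glycine was called (list median -0.04), with Slc38a2 at 0.08 (SE 0.08), Slc38a1 at -0.02 (SE 0.05) and Slc7a10, which exchanges serine and glycine in astrocytes, at -0.29 (SE 0.10, adjusted p = 0.0592).

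Of 8 transcription factors of spinal inhibitory neurons, 1 rose (list median -0.02): Lhx5, by 0.42 on the log2 scale (SE 0.07, adjusted p = 0.000119). Pax2, which marks inhibitory neurons of the dorsal horn, was at -0.06 (SE 0.07) and Lbx1 at -0.20 (SE 0.08, adjusted p = 0.11).

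Neuron markers were nearly level at 4 h, with 1 of 10 lower in ACC (Syt1) and none higher, and their summed CPM was 7887 to 9808 in ACC and 7772 to 9270 in Sham cord. Of the 6 microglia markers, 3 were lower in ACC (P2ry12, Tmem119 and Csf1r), and the list summed to 188 to 254 CPM in ACC and 234 to 290 CPM in Sham cord. None of 6 motor neuron and none of 6 oligodendrocyte markers was called by edgeR. The part of these cells in the 4 calls among the 7 genes was not tested.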

How the data were processed

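The authors deposited raw counts per gene for each library, with gene coordinates and gene lengths in the same tables. The build is GRCm38 (mm10), and the tools that the submitters' processing notes list are fastp for read cleaning, HISAT2 2.0.5 for alignment and featureCounts 1.5.0-p3 for counting. Which annotation release was used, and whether counting was by strand, is not given in the sources used here. The authors' deposited tables of comparisons hold log2 fold changes and p-values from DESeq2, with signs turned round here to ACC minus Sham and high minus low. The 89 deposited normalized per-sample columns were not used.

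CPM were computed from the counts with the raw library totals, without TMM, and TPM with the gene lengths that the authors deposited; the log2 differences of the tests use TMM. Tests used edgeR 4.0.16 (TMM, filterByExpr with a minimum count of 10, robust quasi-likelihood F test) in R 4.3.3 with limma 3.58.1, on all genes that passed the filter, with Benjamini-Hochberg adjustment and a threshold of 0.05. Any adjusted p is from edgeR unless another tool is named. The fits held 17810 genes at 1 h, 17759 at 4 h over all genotypes and 19581 with 6 groups. Alternatives were DESeq2 1.42.0, RLE normalization, no filter, a replicate block, each library left out, the set-aside library kept, and genotype or the ribosomal protein level as covariate. At 4 h the replicate block used only the 18 libraries with a same-numbered library in the other arm of their genotype. The ribosomal covariate and the fit without both miR155KI Sham replicates 2 and 4 were chosen after seeing the data. Scripts were tested on simulated data.

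Total counts per library limit precision to counting error at the low end, and each p-value sets a difference against the spread between these libraries. The main fit at 1 h had no term for the mouse. Region pairs at 1 h come from the same mouse; deviations of paired libraries correlated at -0.0487 to 0.0562, and the block changed no call among the 7 genes. The 7 genes and the gene lists were chosen with earlier results of these data known. Whether groups overlapped was read for the 7 genes and Glra4 alone, so no share over all genes stands beside those statements. Overlap was read in CPM unless TPM or shares are named. The text names the 7 genes, the list genes called (or the 2 most abundant where none is) and, beyond that rule, list members chosen after their values were seen: Nlgn2, Grin1, Shmt1, Shmt2, Gldc, Slc32a1, Slc7a10, Pax2 and Lbx1 at 4 h. Some list genes that this rule names are not reported here.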

Additional observations from a re-analysis of the deposited data

How the results depend on the processing

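Glra3 and Slc6a9 kept their direction and their call at 4 h in all 30 alternatives. Of the 7 genes, the 4 h comparison over all genotypes called 2 with the replicate block and 3 to 4 with 1 library left out, against 4. The same numbers at 4 h were not shown to pair mice: correlations of same-numbered libraries ran from -0.223 to 0.19, and 4 of 18 libraries correlated best with their own number. The block at 4 h held only these 18 libraries, so it changed the set of libraries as well as the model. At 1 h, 1 of the 7 genes was called without the filter. Within miR128KO, DESeq2 called 2, the block 0, the set-aside library 0, and 1 library left out 0 to 1, against 1. Within miR155KI, the block called 0 and 1 library left out 1 to 2, against 2. Over all genes, 1 h calls numbered 78, against 130 by DESeq2 and 272 without the filter; 4 h calls numbered 2914, against 1866 with the block; miR128KO calls numbered 535, against 871 by DESeq2.

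Signs turned only for values that were not called, given here as log2 differences. The block, on fewer libraries, gave 0.00186 for Glrb over all genotypes and, within miR128KO, 0.0915 for Glra2, 0.114 for Glrb and 0.0623 for Slc6a5. With the ribosomal covariate, chosen after seeing the data, Slc6a5 was at 0.0535 in WT, 0.0453 in miR128KO and -0.0628 in miR155KI, and Glra1 at -0.205 in miR155KI. Pfn2 at 1 h was at 0.00115 by DESeq2 and 0.00108 without the filter. The cause was not tested. With 1 library left out, values over all genotypes ran from -0.145 to 0.0370 for Glra1, -0.0278 to 0.0464 for Slc6a5 and -0.0528 to 0.00489 for Slc38a1. In WT they ran from -0.0455 to 0.556 for Glra1, -0.0266 to 0.0154 for Glrb and -0.190 to 0.116 for Slc6a5. In miR128KO they ran from -0.0862 to 0.00874 for Glrb, and in miR155KI from -0.178 to 0.432 for Glra1, -0.0575 to 0.00188 for Glrb and -0.0277 to 0.160 for Slc6a5. For Glrb in miR155KI against WT ACC they ran from -0.0361 to 0.0236. At 1 h they ran from -0.0556 to 0.157 for Glra3, -0.0299 to 0.0780 for Gphn, -0.121 to 0.0353 for Slc6a5, -0.0545 to 0.0439 for Dld, -0.0677 to 0.015 for Mocs2, -0.0506 to 0.0365 for Pfn2, -0.108 to 0.0190 for Psat1 and -0.0174 to 0.21 for Slc38a2. Groups of 3 mice limit what the comparisons within a genotype can call.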

Other observations

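In the library that the study set aside, miR128KO ACC replicate 1, Glra3 stood at 33.1 CPM, above the other 3 miR128KO ACC libraries and below the 4 miR128KO Sham libraries. Slc6a9 stood at 166 CPM, above all miR128KO Sham libraries. Gphn stood at 67.9 CPM, Glra2 at 13.0 CPM, Glra1 at 46.3 CPM, Glrb at 347 CPM and Slc6a5 at 343 CPM. Its Slc6a9 value thus lay on the side of the ACC libraries. Its Glra3 value lay between the miR128KO arms, and within the range of the Sham libraries of all genotypes.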
